A study of Mus musculus with 8 samples.

Results

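Myeloid chemoattractant receptors were examined as a set of 10 named genes: *Cxcr1*, *Cxcr2*, *Fpr1*, *Fpr2*, *C5ar1*, *Ltb4r1*, *Ffar2*, *Ccr1*, *Ccr2* and *Cx3cr1*. They were chosen by name for their known role, with no threshold on a value but with earlier results of these data known. They are 10 of the 16536 genes in the deposited table of read counts. All 10 passed the filter on low counts that 15421 genes passed, *Cxcr1* through the SAG-treated mice alone. Bulk RNA-seq had been made from Pthrp-mCherry+CD73+ cells, which were sorted by flow cytometry from the 2 femoral growth plates of each mouse. All mice carried the Pthrp-mCherry reporter. They received a daily i.p. injection of either the vehicle DMSO (4 mice) or SAG, an agonist of Smoothened that activates hedgehog signaling (4 mice), from postnatal day 30 to day 36, and were sacrificed on day 38. Each library was 1 mouse, so the spread within a group was that between mice. The study used the reporter and the surface protein CD73 to select stem cells of the growth plate. Its methods name a viability dye in the sort and describe no step that removes blood cells, and the sex of each mouse was not given in the labels.

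These receptors are G protein–coupled receptors that couple mainly to Gi proteins and steer blood leukocytes along gradients of attractant. CXCR1 and CXCR2 bind the CXC chemokines that recruit neutrophils, the formyl peptide receptors sense peptides of bacteria and damaged mitochondria, C5AR1 senses the complement fragment C5a, LTB4R1 senses leukotriene B4 and FFAR2 senses short-chain fatty acids. CCR1 is shared by neutrophils and monocytes, whereas CCR2 and CX3CR1 are best known from classical and patrolling blood monocytes. In growth plate cartilage, none of them is a classical marker of resting zone cells or chondrocytes.

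Libraries held between 24971992 and 46593090 counts, and between 14416 and 16285 genes were detected in each. DMSO replicate 4 had the lowest value of both. All 12 chondrocyte markers were detected, with a summed level of 48115 to 111697 CPM (counts scaled to the library total, with TMM factors) in the DMSO mice and 19399 to 54492 CPM in the SAG mice. *Pthlh*, the gene of PTHrP, was present at 18.5 ± 3.15 CPM with DMSO and 23.8 ± 4.78 CPM with SAG (SD, n = 4 mice in each group, as for every mean below), and *Nt5e*, which encodes CD73, at 228 ± 47.8 and 159 ± 12.5 CPM. Each of these markers had counts in every library, beside RNA of blood cells that is described after the receptors. Neither *Pthlh* nor *Nt5e* passed the edgeR test described below (adjusted p = 0.606 and 0.185). For *Nt5e* the difference was -0.51 ± 0.19 (SE) on the log2 scale, with every SAG mouse below every DMSO mouse, against 3.84% of all genes.

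After SAG, 6 of the 10 receptor genes rose and none fell (edgeR quasi-likelihood test, Benjamini-Hochberg adjusted p under 0.05). *Cxcr1* had 0 counts in all DMSO mice and passed the filter through the SAG mice alone, so it is left out of the counts that follow, which are over the other 9 genes. The genes that rose were *Cxcr2*, *Fpr1*, *Fpr2*, *C5ar1*, *Ffar2* and *Ccr1*, with fitted differences of 1.24 to 3.11 on the log2 scale. Over all 15421 genes tested, 2.62% were called higher and 0.266% lower. Because the set was chosen with earlier results of these data known, such shares are given for scale and are no test of the set. In 6 of the 9, every SAG mouse lay above every DMSO mouse, against 7.90% of all genes. In 0 of the 9 did every SAG mouse lie below every DMSO mouse, against 3.84% of all genes. At an unadjusted p under 0.05, edgeR gave 7 of the 9 higher and 0 lower, against 9.58% and 6.50% of all genes. The median difference of the 9 genes was 1.57 on the log2 scale, as it was over all 10 with *Cxcr1* at its lower bound, and the median of all genes tested was -0.08. DESeq2 called 7 of the 9 higher, adding *Ltb4r1*, and 0 lower, against 6.60% and 3.23% of the 12077 genes to which it gave an adjusted p. Limma voom, run here and below with a quality weight for each library, called 7 higher and 0 lower, against 6.45% and 2.58% of all genes. The edgeR count depended on single mice: it was 1 without DMSO replicate 3, 2 without SAG replicate 2, 3 without DMSO replicate 1, DMSO replicate 2 or SAG replicate 4, and 7 without DMSO replicate 4. The number of all genes called higher also moved, from 404 with every mouse to 94 without DMSO replicate 3 and 138 without SAG replicate 2. It was 187 without DMSO replicate 1, 80 without DMSO replicate 2, 92 without SAG replicate 4 and 1017 without DMSO replicate 4.

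**Figure D1:**
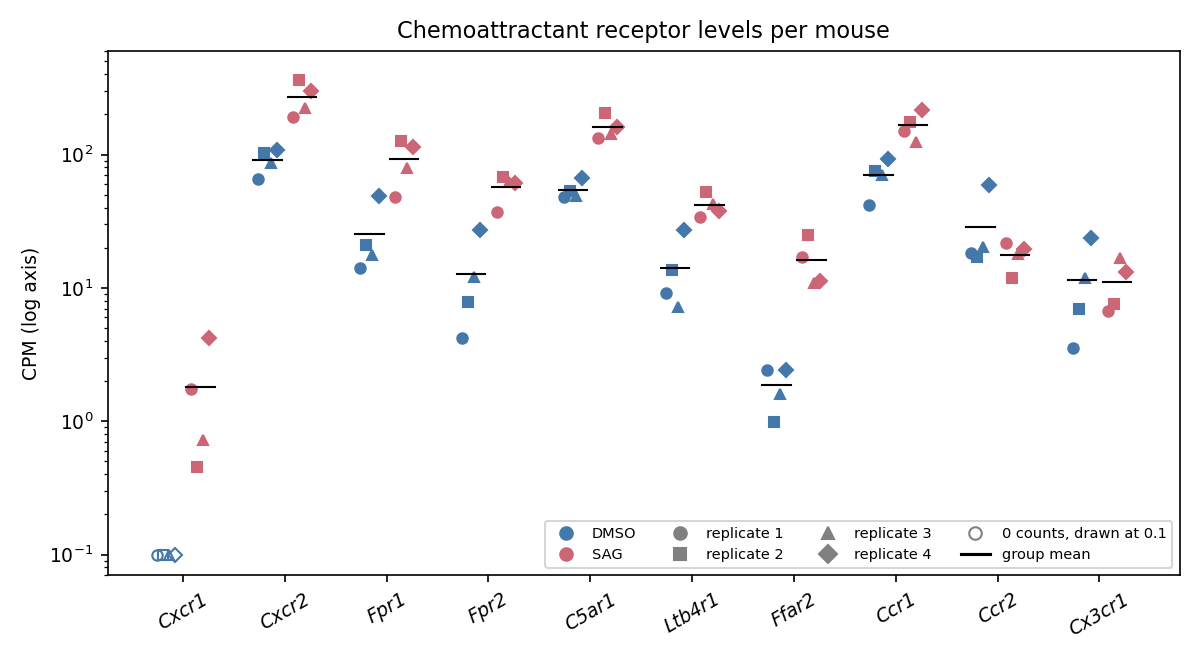
Level of each receptor gene in each mouse, in CPM on a log axis. Blue points are DMSO mice and red points SAG mice, the marker shape gives the replicate number and the bar the group mean. Open symbols at 0.1 stand for 0 counts. Cxcr2 lies between 65.7 and 108 CPM with DMSO and between 192 and 360 CPM with SAG, while the groups overlap for Fpr1, Ccr2 and Cx3cr1.

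Several receptor genes lie near each other in the genome (GRCm38, GENCODE M21). *Cxcr2* (chr1:74153989-74161246, plus strand) and *Cxcr1* (chr1:74191785-74194631, minus strand) start 40642 bases apart. *Fpr1* (chr17:17876471-17883940, minus strand) and *Fpr2* (chr17:17887824-17893952, plus strand) lie head to head with starts 3884 bases apart. *Ccr1* (chr9:123962124-123968692, minus strand) and *Ccr2* (chr9:124101950-124113557, plus strand) start 133258 bases apart, and *Cx3cr1* (chr9:119901616-120069879, minus strand) lies on the same chromosome. *C5ar1* (chr7:16246743-16259540, minus strand), *Ffar2* (chr7:30818348-30823775, minus strand) and *Ltb4r1* (chr14:55765962-55768494, plus strand) have no other member near them. All 10 are annotated as protein coding.

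Since 6 of these genes rose together, the 250 bases before their RefSeq start sites (GRCm38.p6) were searched on both strands for the core of the myeloid PU.1 motif, GAGGAA, and for the C/EBP motif TTGCNNAA. A start site was found for all 10 genes, and the one listed at the head of each gene's entries was used. The PU.1 core occurred before 4 of the 10 genes, against 23.1% of 27025 RefSeq promoters of the same length, and the C/EBP motif before 1 of the 10, against 9.55%. *Ffar2* has 3 further RefSeq starts, whose windows are not in these counts. Of these, 1 holds the C/EBP motif, 1 the PU.1 core and 1 both, and the last 2 overlap each other. The matches are descriptions of the letters and no binding was measured. The 5 of these 10 windows that hold a match are shown, each with 1 of the motifs, from 5′ to 3′ on the gene's strand, with the match in capitals. They lie at chr1:74153744-74153993 (*Cxcr2*, plus strand), chr17:17887574-17887823 (*Fpr2*, plus strand), chr14:55765712-55765961 (*Ltb4r1*, plus strand), chr9:123968693-123968942 (*Ccr1*, minus strand) and chr7:30823776-30824025 (*Ffar2*, minus strand, the C/EBP match). A match written TTCCTC is the PU.1 core on the opposite strand.
Cxcr2: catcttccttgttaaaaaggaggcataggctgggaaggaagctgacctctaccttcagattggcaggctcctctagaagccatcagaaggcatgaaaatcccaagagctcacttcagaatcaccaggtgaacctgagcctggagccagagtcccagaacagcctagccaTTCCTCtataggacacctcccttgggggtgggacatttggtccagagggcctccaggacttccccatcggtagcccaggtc
Fpr2: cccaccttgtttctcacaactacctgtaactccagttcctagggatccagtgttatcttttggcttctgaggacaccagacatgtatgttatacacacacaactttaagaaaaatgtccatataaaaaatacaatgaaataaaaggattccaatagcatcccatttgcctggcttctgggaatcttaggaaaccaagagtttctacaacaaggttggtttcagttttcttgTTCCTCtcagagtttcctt
Ltb4r1: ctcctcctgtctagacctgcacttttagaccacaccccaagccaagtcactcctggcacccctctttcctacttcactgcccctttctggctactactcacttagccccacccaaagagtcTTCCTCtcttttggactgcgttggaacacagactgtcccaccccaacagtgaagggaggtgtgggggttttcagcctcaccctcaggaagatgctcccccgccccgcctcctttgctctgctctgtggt
Ccr1: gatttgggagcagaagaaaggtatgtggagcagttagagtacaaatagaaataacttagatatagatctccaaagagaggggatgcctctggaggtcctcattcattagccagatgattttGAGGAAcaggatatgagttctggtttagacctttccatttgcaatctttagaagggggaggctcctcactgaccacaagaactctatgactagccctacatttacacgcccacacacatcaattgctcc
Ffar2: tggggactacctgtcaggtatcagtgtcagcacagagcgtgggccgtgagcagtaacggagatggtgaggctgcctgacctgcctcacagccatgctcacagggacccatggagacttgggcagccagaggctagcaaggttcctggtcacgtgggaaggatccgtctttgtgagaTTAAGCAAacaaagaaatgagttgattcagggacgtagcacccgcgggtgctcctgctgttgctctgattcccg

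Among the receptors for CXC chemokines, *Cxcr2* was the most abundant of the 10 genes per length of exon. Its level in DMSO replicates 1 to 4 was 65.7, 103, 87.1 and 108 CPM, and in SAG replicates 1 to 4 it was 192, 360, 224 and 301 CPM. All SAG mice were above all DMSO mice, and the lowest of them, replicate 1, was still well above DMSO replicate 4. The mean level was 91.0 ± 19.1 CPM with DMSO and 269 ± 76.0 CPM with SAG, a ratio of 2.96. The fitted difference was 1.57 ± 0.24 (SE) on the log2 scale (edgeR adjusted p = 0.0106). It stayed between 1.39 and 1.70 when each mouse was left out in turn, and the call was lost only without DMSO replicate 3 (edgeR adjusted p = 0.0501).

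*Cxcr1*, the neighbouring receptor gene on chromosome 1, had 0 counts in each of the 4 DMSO mice. In SAG replicates 1 to 4 it had 61, 19, 29 and 186 counts, or 1.75, 0.452, 0.722 and 4.24 CPM. The gene was thus detected in every SAG mouse and in no DMSO mouse, at levels that varied widely between SAG mice. Set against a floor of 3 counts per library, at most 0.114 CPM in a DMSO mouse, the SAG mean of 1.79 ± 1.73 CPM was at least 15.7-fold higher, and the lowest SAG mouse was 3.96 times the floor. The bound rested in part on SAG replicate 4, without which the mean was 0.976 CPM and at least 8.57-fold higher. Since the gene passed the filter only through the group in which it was seen, no test of it is given, and its fitted difference depends on the count added before taking logs.

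The formyl peptide receptors are a tandem family whose members bind formylated peptides with high affinity (*Fpr1*) or a wide range of peptides and lipids (*Fpr2*). *Fpr1* was at 14.2, 21.1, 17.6 and 48.6 CPM in the DMSO mice and at 48.0, 127, 79.5 and 113 CPM in the SAG mice. DMSO replicate 4 reached the level of SAG replicate 1, so the groups overlapped by a narrow margin, and the other DMSO mice were clearly below. The means were 25.4 ± 15.7 and 91.9 ± 35.5 CPM, a ratio of 3.62, and the difference was 1.86 ± 0.42 on the log2 scale (edgeR adjusted p = 0.0383). With a mouse left out the difference was 1.66 to 2.41, and the call was kept without DMSO replicate 4 or SAG replicate 1 and lost without any of the other 6 mice, with an edgeR adjusted p of up to 0.141. It was also lost with plain library sizes (edgeR adjusted p = 0.0528) and with DESeq2-type size factors (0.0502).

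*Fpr2* was at 4.22, 7.79, 12 and 27.2 CPM with DMSO and at 36.9, 67.7, 61.8 and 61.0 CPM with SAG. The SAG mice were all above the DMSO mice, among which replicate 4 was again the highest. The means were 12.8 ± 10.1 and 56.8 ± 13.6 CPM, a ratio of 4.44, and the difference was 2.15 ± 0.50 on the log2 scale (edgeR adjusted p = 0.0416). Leaving out single mice gave 1.86 to 2.86, and the call was kept without DMSO replicate 4 and lost in the other 7 of these fits, with an edgeR adjusted p of up to 0.146. It was also lost without the filter on low counts (edgeR adjusted p = 0.0506), with plain library sizes (0.057) and with DESeq2-type size factors (0.055). Of the 31-base stretches of *Fpr2* exons, 43% also occur in other genes, mainly a pseudogene and *Fpr3*, whose exons overlap those of *Fpr2* and which was not analysed here. Its level is therefore uncertain, whereas for *Fpr1* the shared part was 1.55%.

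*C5ar1*, the receptor of the complement fragment C5a, had the difference with the smallest standard error of the 9 receptor genes detected in both groups. The DMSO mice were at 47.7, 53.0, 48.8 and 66.3 CPM and the SAG mice at 133, 205, 143 and 160 CPM. The groups were far apart, with a mean of 54.0 ± 8.53 CPM in DMSO and 160 ± 32.0 CPM in SAG mice, a ratio of 2.97. The difference of 1.57 ± 0.20 on the log2 scale (edgeR adjusted p = 0.00964) was called in each of the 15 alternative fits, with the largest adjusted p of any of them, over edgeR, DESeq2 and limma, at 0.0454.

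*Ltb4r1* encodes the high-affinity receptor of leukotriene B4, a lipid attractant made by neutrophils themselves. Its level was 9.14, 13.5, 7.19 and 27.0 CPM in the DMSO mice and 33.9, 52.6, 42.6 and 37.6 CPM in the SAG mice. The groups did not overlap, and DMSO replicate 4 was the nearest to the SAG mice. The means were 14.2 ± 8.92 and 41.7 ± 8.09 CPM, a ratio of 2.94, but the difference of 1.56 ± 0.40 on the log2 scale did not pass the edgeR test (adjusted p = 0.0663). It passed with DESeq2 (adjusted p = 0.00924), with limma voom (0.0026), with a filter of at least 10 counts in every library (edgeR, 0.0442) and without DMSO replicate 4 (edgeR, 0.00209, with a difference of 2.10).

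*Ffar2*, the receptor of short-chain fatty acids, was scarce with DMSO, at 2.42, 0.982, 1.60 and 2.43 CPM. With SAG it was at 17.1, 25.1, 10.9 and 11.3 CPM, so that each SAG mouse was several times above the highest DMSO mouse. The mean level was 1.86 ± 0.703 CPM against 16.1 ± 6.66 CPM, a ratio of 8.65, and the difference of 3.11 ± 0.52 on the log2 scale was the largest of the 9 receptor genes detected in both groups (edgeR adjusted p = 0.013). It was 2.81 to 3.29 with a mouse left out, and the call was lost without DMSO replicate 3 (edgeR adjusted p = 0.0538) or SAG replicate 2 (0.0632).

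*Ccr1*, *Ccr2* and *Cx3cr1* are receptors of monocytes, *Ccr1* of neutrophils too. *Ccr1*, a receptor of CC chemokines such as CCL3 and CCL6, was at 41.9, 74.9, 70.7 and 93.3 CPM in the DMSO mice and at 150, 174, 124 and 215 CPM in the SAG mice. The groups were separate, with means of 70.2 ± 21.3 and 166 ± 38.8 CPM and a ratio of 2.36. The difference was 1.24 ± 0.26 on the log2 scale (edgeR adjusted p = 0.0295), and it ranged from 1.06 to 1.44 with a mouse left out. The call was lost without DMSO replicate 1, 2 or 3 or SAG replicate 2 or 4, with an edgeR adjusted p of up to 0.107.

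*Ccr2*, the receptor of CCL2 through which classical monocytes leave the marrow, was at 18.2, 17.1, 20.3 and 59.3 CPM with DMSO and at 21.7, 11.8, 17.9 and 19.6 CPM with SAG. DMSO replicate 4 stood apart from the other 7 mice, which shared a single range. The difference of -0.69 ± 0.43 on the log2 scale did not pass the test (edgeR adjusted p = 0.49) and was -0.03 without DMSO replicate 4. *Cx3cr1*, the receptor of fractalkine on patrolling monocytes and many tissue macrophages, was at 3.52, 6.94, 11.8 and 23.5 CPM with DMSO and at 6.75, 7.63, 16.8 and 13.1 CPM with SAG. The SAG mice lay inside the range of the DMSO mice. The means were 11.4 ± 8.73 and 11.1 ± 4.75 CPM, and the difference of -0.05 ± 0.57 on the log2 scale (edgeR adjusted p = 0.985) became 0.61 without DMSO replicate 4. The exons of *Cx3cr1* overlap those of an antisense gene, *Gm33858*. The library kit keeps strand, but how strand was used in counting was not given in the sources used here.

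**Figure D2:**
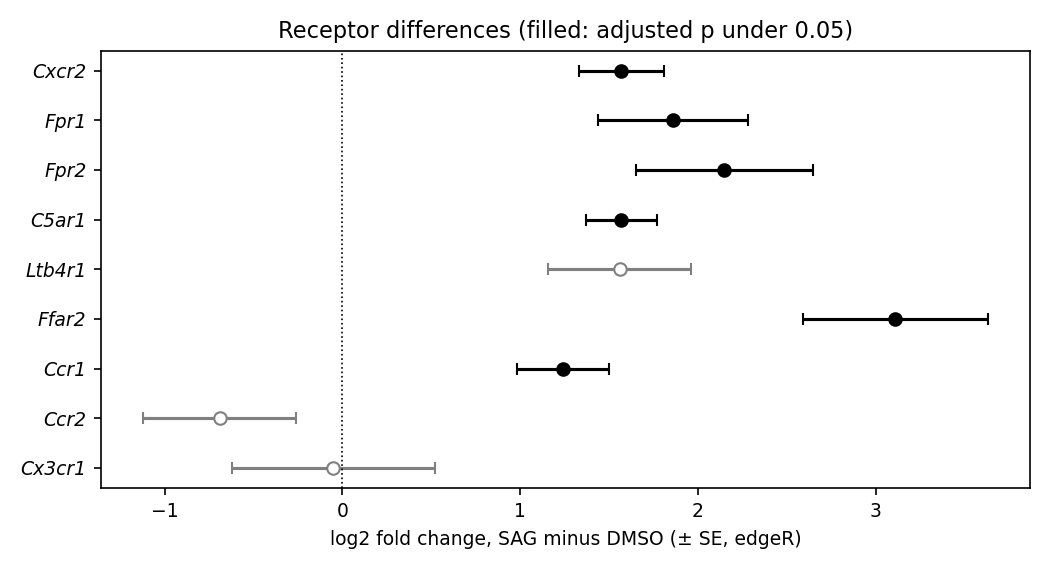
Fitted difference between SAG and DMSO mice (x axis, log2 scale, with its standard error as bars) for 9 receptor genes. Filled points passed the edgeR test at an adjusted p under 0.05 and open points did not. Cxcr1 is left out because it had 0 counts in all DMSO mice. Ffar2 lies at 3.11, Cxcr2 and C5ar1 at 1.57, and Ccr2 at -0.69 and Cx3cr1 at -0.05 lie on the other side of 0.

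Levels of different genes were compared per kilobase of merged exon. With DMSO, the order of the mean levels was *Cxcr2* (29.9 ± 6.26 CPM per kb), *Ccr1* (24.8 ± 7.51), *C5ar1* (21 ± 3.32), *Fpr1* (19.2 ± 11.9), *Ltb4r1* (10.2 ± 6.40), *Fpr2* (9.87 ± 7.81), *Ccr2* (4.25 ± 3.02), *Cx3cr1* (2.54 ± 1.94), *Ffar2* (0.666 ± 0.252) and *Cxcr1* (0). Neighbours in this order down to *Ffar2* differed by less than the larger SD of the pair. With SAG it was *Cxcr2* (88.4 ± 24.9 CPM per kb), *Fpr1* (69.4 ± 26.8), *C5ar1* (62.4 ± 12.5), *Ccr1* (58.5 ± 13.7), *Fpr2* (43.9 ± 10.5), *Ltb4r1* (29.9 ± 5.81), *Ffar2* (5.77 ± 2.39), *Ccr2* (2.63 ± 0.634), *Cx3cr1* (2.46 ± 1.05) and *Cxcr1* (1.2 ± 1.16). Here the 6 most abundant receptors stood above the other 4, the leading 4 neighbours again differed by less than the larger SD, and *Cxcr2* held the top place in 7 of the 8 libraries, the exception being DMSO replicate 4, in which *Fpr1* was higher.

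The summed level of the 10 genes was 79.8, 117, 106 and 186 CPM per kb in DMSO replicates 1 to 4 and 269, 458, 322 and 409 CPM per kb in SAG replicates 1 to 4. The share of *Cxcr2* in that sum was 19.1% to 28.8% with DMSO and 22.8% to 25.8% with SAG, so its range with SAG lay inside that with DMSO. The share of *Ccr2* was 3.38%, 2.17%, 2.82% and 4.71% in the DMSO mice and 1.2%, 0.380%, 0.821% and 0.710% in the SAG mice. The share of *Ffar2* was 1.09%, 0.301%, 0.539% and 0.468% in the DMSO mice and 2.28%, 1.96%, 1.21% and 0.987% in the SAG mice. *Ccr2* thus made up a smaller part of the receptor RNA in every SAG mouse than in any DMSO mouse, while for *Ffar2* SAG replicate 4 overlapped with DMSO replicate 1.

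**Figure D3:**
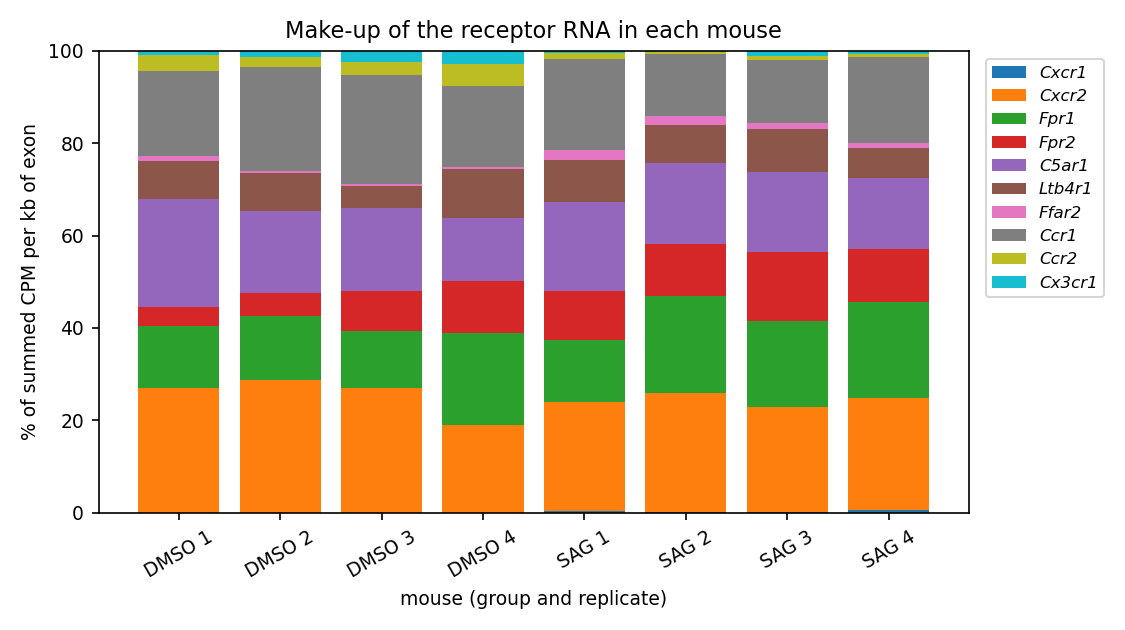
Make-up of the receptor RNA in each mouse, as the percentage of the summed CPM per kb of exon that each of the 10 genes takes. Bars are the 4 DMSO and 4 SAG mice. Cxcr2 takes 19.1% to 28.8% in every mouse, and Ccr2 takes 2.17% to 4.71% with DMSO and 0.380% to 1.2% with SAG.

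The balance between receptors was then compared within each mouse, as the difference of 2 genes on the log2 CPM scale, for 8 pairs with p-values adjusted over the 8. With 4 mice against 4, an exact permutation test cannot give a 2-sided p below 0.0286, and no adjusted p came under 0.0762. That value counts the pair *Cxcr2* minus *Cxcr1*, and over the 7 pairs without *Cxcr1*, an alternative chosen after seeing the data, the smallest adjusted p was 0.1. *Cxcr2* minus *Ccr2* was 1.85, 2.58, 2.10 and 0.87 in the DMSO mice and 3.14, 4.93, 3.64 and 3.93 in the SAG mice, a shift of 2.06 (exact permutation p = 0.0286, adjusted p = 0.0762). *Ccr2* minus *Ccr1*, 2 genes of chromosome 9, was -1.2, -2.13, -1.80 and -0.65 with DMSO and -2.78, -3.88, -2.79 and -3.45 with SAG, a shift of -1.78 (exact permutation p = 0.0286, adjusted p = 0.0762). In both pairs the groups did not overlap, and the shifts were 1.74 and -1.52 without DMSO replicate 4. Neither passed the adjusted threshold, which this design could reach only if most pairs had the smallest p.

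For the other pairs the groups overlapped, apart from *Cxcr2* minus *Cxcr1*, where the zero counts of *Cxcr1* leave no interpretable difference. *Cxcr2* minus *Ffar2* was 5.63 ± 0.79 with DMSO and 4.10 ± 0.55 with SAG (exact permutation p = 0.0571, adjusted p = 0.114). *Ccr2* minus *Cx3cr1* shifted by -0.70 (exact permutation p = 0.229, adjusted p = 0.305). The shift was 0.51 for *Fpr2* minus *Fpr1* (exact permutation p = 0.171, adjusted p = 0.274), -0.38 for *Cxcr2* minus *Fpr1* (p = 0.343, adjusted p = 0.392) and -0.16 for *C5ar1* minus *Ltb4r1* (p = 0.714, adjusted p = 0.714). Over the 7 pairs without *Cxcr1*, the adjusted p of the permutation test was 0.133 for *Cxcr2* minus *Ffar2* and 0.32 for *Ccr2* minus *Cx3cr1*. It was 0.3 for *Fpr2* minus *Fpr1*, 0.4 for *Cxcr2* minus *Fpr1* and 0.714 for *C5ar1* minus *Ltb4r1*.

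**Figure D4:**
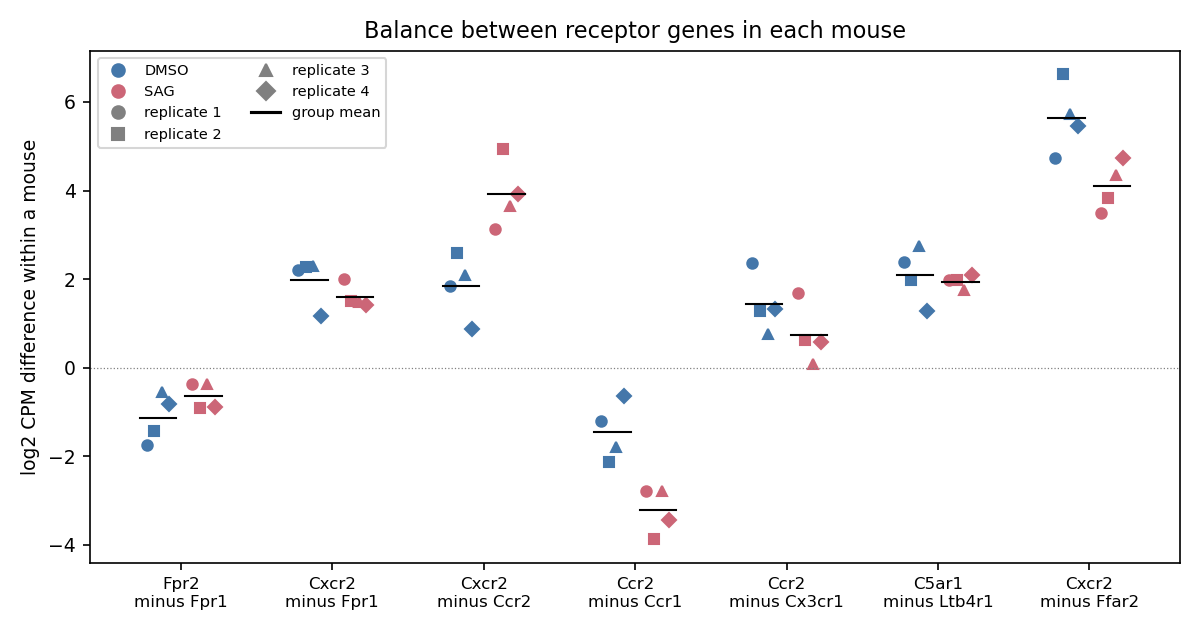
Difference between the receptor genes of a pair within each mouse (y axis, log2 CPM) for 7 pairs. Blue points are DMSO and red points SAG mice, marker shapes give the replicate and bars the group means. Cxcr2 minus Ccr2 has means of 1.85 with DMSO and 3.91 with SAG and the points of the groups do not overlap, and the same holds for Ccr2 minus Ccr1 at -1.45 and -3.23.

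Lists of blood cell markers differed in direction. Over all genes, edgeR called 2.62% higher and 0.266% lower, DESeq2 6.60% and 3.23%, and limma voom 6.45% and 2.58%. Of 14 neutrophil markers, 10 rose and none fell, with a median difference of 2.01 on the log2 scale, and their summed level was 5416 to 15211 CPM in the DMSO mice and 28078 to 45501 CPM in the SAG mice. *S100a9* rose from 2488 ± 865 to 9970 ± 2601 CPM (edgeR adjusted p = 0.0102), and none of the 14 was at 0 in any mouse. Of 12 monocyte and macrophage markers, 1 rose, *Ly6c2* (64.1 ± 38.2 to 178 ± 42.1 CPM, edgeR adjusted p = 0.0452), and none fell, with a median of 0.23 and a summed level of 729 to 1487 CPM against 925 to 1292 CPM. *Cd14* of that list was at 90.5 ± 42.1 CPM with DMSO and 216 ± 49.6 CPM with SAG, without overlap. It did not pass the edgeR test (adjusted p = 0.0543) but did pass with DESeq2 (adjusted p = 0.00695). *F13a1* of that list was at 392 ± 182 CPM with DMSO and 191 ± 64.8 CPM with SAG, without overlap, and did not pass the edgeR test (adjusted p = 0.147) but did pass with DESeq2 (0.0321), which called 2 of the list higher and 1 lower. Of 7 B-lineage markers tested, 3 fell, *Pax5* and *Cd79a* among them, and the summed level was 71.6 to 313 CPM with DMSO and 16.1 to 32.8 CPM with SAG. DESeq2 called 6 of these lower and limma voom 2. No chondrocyte marker passed the edgeR test, but all 12 had negative differences, with a median of -1.03, and 11 had an unadjusted p under 0.05, against the 6.50% of all genes. DESeq2 called 6 of them lower and limma voom 9, as edgeR did for 9 without DMSO replicate 4. Among 31 eosinophil and basophil, T and NK, erythroid, endothelial and osteoblast markers, edgeR called 0, with an unadjusted p under 0.05 for 1 higher and 4 lower, beside 9.58% and 6.50% of all genes, and DESeq2 called 3 lower and limma voom 1. With each mouse left out in a check chosen after seeing the data, the neutrophil count ran from 4 without DMSO replicate 3 to 12 without DMSO replicate 4, and the B-lineage count from 1 without DMSO replicate 3 or SAG replicate 2, 3 or 4 to 4 without DMSO replicate 4. The monocyte count was 2 higher and 1 lower without DMSO replicate 4 and 0 in the other 7 fits. Over all genes, 94 were called higher and 4 lower without DMSO replicate 3, against 1017 and 343 without DMSO replicate 4. The lower calls over all genes were 6, 8 and 7 without SAG replicate 2, 3 and 4. In bulk RNA, more cells of a type and more receptor RNA per cell cannot be told apart, and the part of these cells in the receptor differences was not tested.

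Set against the mean log2 CPM of the 14 neutrophil markers in the same mouse, *Cxcr2*, *Fpr1*, *C5ar1* and *Ltb4r1* differed between SAG and DMSO mice by -0.29, 0.09, -0.28 and -0.12. The corresponding values were -0.57 for *Ccr1*, 0.60 for *Fpr2* and 1.24 for *Ffar2*. For these 7 genes the groups overlapped on that relative scale. *Ccr2* relative to the neutrophil markers was -4.21 to -3.36 in the DMSO mice and -6.83 to -5.54 in the SAG mice, without overlap, and *Cx3cr1* differed by -1.66 with overlap. Relative to the monocyte and macrophage markers, *Ccr2* overlapped, at -2.0 to 0.32 in the DMSO mice and -2.21 to -1.31 in the SAG mice. On that scale *Cxcr2*, *Fpr2*, *C5ar1* and *Ffar2* were higher in all SAG mice, and *Fpr1*, *Ltb4r1*, *Ccr1* and *Cx3cr1* overlapped. These values are descriptions with no test.

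Over the 8 libraries, the 5 genes whose log2 CPM profile, centred on the gene's mean, was nearest to that of *Cxcr2* were *Stat4*, *Arhgap4*, *Svip*, *Arap3* and *Sorl1*, with root mean square differences of 0.09 to 0.14 among 14336 genes compared. *C5ar1* was at rank 9 (0.17) and *Ccr1* at rank 96 (0.27). The 5 nearest to *Ccr2* were *Ddx19b*, *Pkib*, *Cox7b*, *Vmn1r183* and *Meis2*, at 0.17 to 0.25, and no other receptor of the set was near it, the closest being *Cx3cr1* at rank 3109 (0.67).

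Of 14 genes for chemokine ligands of these receptors, 1 rose, *Ccl6*, a ligand of CCR1, from 493 ± 93.3 to 1076 ± 256 CPM (difference 1.13 ± 0.22, edgeR adjusted p = 0.0208), and none fell. *Cxcl2*, a ligand of CXCR2, was at 247 ± 85.2 CPM with DMSO and 524 ± 136 CPM with SAG without passing the test (edgeR adjusted p = 0.0743), and *Cxcl1*, another, was at 18.4 ± 7.36 and 13.7 ± 5.54 CPM. The median difference of the chemokine genes was 0.25 on the log2 scale. With a mouse left out, the count was 2 without DMSO replicate 4, 1 without SAG replicate 1 or 3 and 0 without any of the other 5. DESeq2 and limma voom each called 2 higher. Over all genes, edgeR called 2.62% higher, DESeq2 6.60% and limma voom 6.45%, and the counts are not read as a result about the list.

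Of 7 genes that make or supply the other ligands, 5 rose and none fell, beside 2.62% and 0.266% of all genes, with a median of 1.54. The count was 2 without DMSO replicate 3 and 3 without SAG replicate 4, fits that called 94 and 92 of all genes higher. *Alox5*, which encodes the 5-lipoxygenase that opens leukotriene synthesis, rose from 104 ± 23.5 to 303 ± 75.5 CPM (1.54 ± 0.23 on the log2 scale, edgeR adjusted p = 0.0102). Its partner *Alox5ap* rose from 105 ± 30.1 to 339 ± 38.9 CPM (1.69 ± 0.22, edgeR adjusted p = 0.0102). *Lta4h*, the enzyme that completes leukotriene B4, also rose (1.28 ± 0.27, edgeR adjusted p = 0.0299), and is named after its values were seen. *Anxa1* and *Camp*, which encode the FPR2 ligands annexin A1 and cathelicidin, rose by 1.76 ± 0.30 and 2.19 ± 0.37 (edgeR adjusted p = 0.0132 for each). *Saa3* and the complement C5 gene *Hc* did not rise, at -0.34 ± 0.70 and -2.23 ± 1.57 (edgeR adjusted p = 0.883 and 0.556). *Hc* was at 24.8 CPM in DMSO replicate 4 and at most 2.39 CPM in any other mouse.

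Among 25 other chemoattractant receptors tested, 1 rose and none fell, beside 2.62% and 0.266% of all genes, with a median of 0.24. With a mouse left out, the count of 1 was kept without DMSO replicate 4 or SAG replicate 3 and was 0 otherwise. DESeq2 and limma voom each called 2 higher, beside 6.60% and 6.45% over all genes. These counts are given for scale and are not read as a result about the list. The gene that rose was *Ptafr*, the receptor of platelet-activating factor, at 45.6 ± 4.90 CPM with DMSO and 86.6 ± 10.9 CPM with SAG (0.93 ± 0.19 on the log2 scale, edgeR adjusted p = 0.0254). *Cxcr4*, which holds leukocytes in the marrow, was at 38.2 ± 10.8 and 80.2 ± 38.7 CPM (edgeR adjusted p = 0.12), and *Hcar2*, a receptor of hydroxybutyrate, at 88.9 ± 16.7 and 150 ± 45.2 CPM (0.137). The atypical receptor gene *Ccrl2* was at 25.1 ± 9.45 and 49.1 ± 17.3 CPM (edgeR adjusted p = 0.223).

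Of 28 genes for signaling downstream of the receptors, 11 rose and none fell, beside 2.62% and 0.266% of all genes, with a median of 0.87. The count was 22 without DMSO replicate 4 and 2 to 5 without DMSO replicate 1, 2 or 3 or SAG replicate 2 or 4, and 7 without SAG replicate 3. Over all genes, 404 were called higher with every mouse and 1017 without DMSO replicate 4. There were 80 to 187 in the fits with counts of 2 to 5, and 225 without SAG replicate 3. DESeq2 called 16 higher and limma voom 22, beside 6.60% and 6.45% of all genes. Neither called any lower, beside 3.23% and 2.58% of all genes. *Fgr*, a Src-family kinase of myeloid cells, rose from 56.3 ± 9.17 to 182 ± 28.6 CPM (1.69 ± 0.19 on the log2 scale, edgeR adjusted p = 0.00853). *Arrb2*, a β-arrestin that uncouples active receptors, rose by 1.77 ± 0.29 (edgeR adjusted p = 0.0117), *Pik3cg*, the catalytic subunit of PI3Kγ, by 1.54 ± 0.27 (0.0146) and *Elmo1*, which activates Rac together with DOCK proteins, by 1.33 ± 0.22 (0.0125). *Itgam*, the α chain of the adhesion receptor Mac-1, rose from 358 ± 136 to 1063 ± 264 CPM (1.57 ± 0.28, edgeR adjusted p = 0.0148). The broadly expressed *Gnai2* was at 789 ± 91.0 and 1266 ± 160 CPM and did not pass the edgeR test (adjusted p = 0.0622), though it did with DESeq2 (0.00694).

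**Figure D5:**
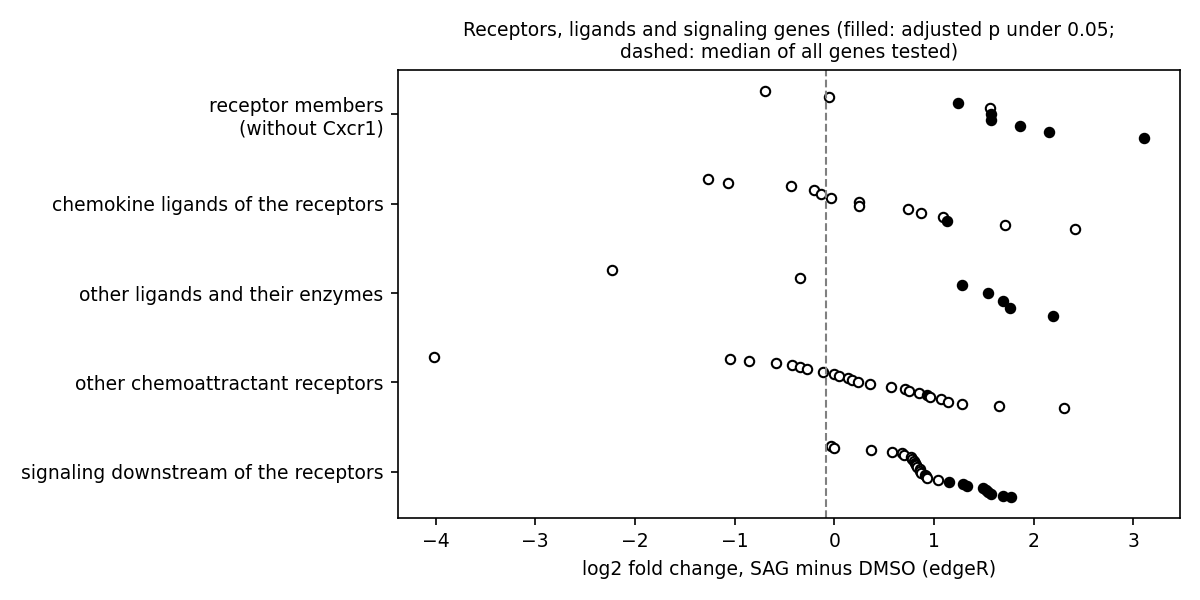
Fitted differences between SAG and DMSO mice (x axis, log2 scale) for the receptor genes without Cxcr1 and for 4 lists of related genes, 1 point per gene. Filled points passed the edgeR test at an adjusted p under 0.05, and the dashed line is the median of all genes tested, -0.08. Filled points are 6 among the receptors, 1 of 14 chemokine genes, 5 of 7 genes for other ligands, 1 of 25 other receptors and 11 of 28 signaling genes, all to the right of 0. Over all genes tested, 2.62% were called higher.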

How the data were processed

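RNA had been extracted with a micro kit and made into stranded total RNA libraries from low input. The authors deposited 1 table of whole-number read counts for 8 mice and 16536 genes, which is raw and not normalized. The submitters' processing notes name kallisto and DESeq2 and the build GRCm38, with no versions, settings or roles, so the counts may be rounded estimates and reads shared between similar genes may have been split. Counts were fitted in R 4.3.3 with edgeR 4.0.16 (filterByExpr, TMM factors, robust quasi-likelihood test of SAG against DMSO, 4 mice in each), and p-values were adjusted by Benjamini-Hochberg over 15421 genes, with a threshold of 0.05. CPM are counts relative to the library total after TMM scaling. Log2 CPM used a prior count of 2. The standard error of a fitted difference was derived from the test, as its absolute value divided by the square root of the F statistic. The common dispersion was 0.466. DESeq2 1.42.0 and limma 3.58.1 (voom with sample quality weights, estimated for each library) were alternatives. Others were other size factors, other filters, a replicate block and each mouse left out in turn. The fit was also run on simulated data, with a dispersion lower than the common dispersion of these data. Its error rates at the spread of these data were therefore not tested.

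The receptors, the gene lists and the rule for named genes (per list, up to 4 genes with the smallest p and up to 2 with the highest level, all receptors, and the 5 genes nearest to *Cxcr2* and to *Ccr2*) were chosen with earlier results of these data known. Symbols of all 16536 genes matched GENCODE M21. A floor of 3 counts, below which a gene could be present and still give 0 counts, was between 0.067 and 0.114 CPM per library. It covers counting error only. Same-numbered mice did not deviate together (correlations of 0.0102 to 0.12), so replicate numbers were not taken as pairs. The design text was followed for the injection days, which the study's methods place a day later.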

Additional observations from a re-analysis of the deposited data

Results flagged for a closer look

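Within each group of 4 mice, the highest or lowest mouse was singled out where its distance from the next mouse, as a ratio to the range of the group, passed Dixon's critical value. The values were receptor levels, mean levels of the neutrophil and of the monocyte markers, and differences within receptor pairs. Of 39 groups examined, 3 passed this limit. Chance alone gives about 1 in 20, or 1.95, for separate groups, but the pair differences reuse the receptor levels. *Ccr2* in the DMSO mice had a ratio of 0.925, with replicate 4 at 59.3 CPM and the nearest mouse at 20.3 CPM. The difference *Cxcr2* minus *Fpr1* had a ratio of 0.915 in the DMSO mice, with replicate 4 at 1.16 and the nearest mouse at 2.20 on the log2 CPM scale. The same difference had a ratio of 0.847 in the SAG mice, with replicate 1 at 2.00 and the nearest at 1.5. DMSO replicate 4 was also the library with the fewest counts and detected genes, and the part of this in its values was not tested.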

How the results depend on the processing

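Against 404 genes called higher and 41 lower by edgeR, DESeq2 called 797 and 390 and limma voom 995 and 398. With a filter of at least 10 counts in every library, 87 were lower, and with a replicate block 18 were lower and 334 higher. When single mice were left out, the counts ran from 80 to 1017 higher and from 4 to 343 lower, the highest of both without DMSO replicate 4. The number of receptor genes called higher ran from 1 to 8 in these fits. It was 4 with DESeq2-type size factors or plain library sizes, 5 without a filter, 7 with the filter of at least 10 counts or DESeq2, 8 with limma voom and 6 with the replicate block, and none was called lower in any fit. The counts of 8, with limma voom and without DMSO replicate 4, each include *Cxcr1* and were 7 without it. The difference of *Cx3cr1* changed sign with limma voom (0.68) and the replicate block (0.19), and ran from -0.34 to 0.61 with a mouse left out. *C5ar1* minus *Ltb4r1* ran from -0.43 to 0.06. Both were uncalled throughout, and the causes of these changes were not tested. The filter of at least 10 counts gave *Cxcr1* no value. With 0 counts, *Cxcr1* could still have been present in DMSO mice below the floor of 3 counts per library, or 0.067 to 0.114 CPM.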
